A study of Homo sapiens with 35 samples.

Results

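The genes described here are 10 members of the ETS family of transcription factors, namely SPI1, SPIB, SPIC, FLI1, ERG, ETS1, ETS2, ETV6, ETV2 and ELF1. They were taken by name, as 10 of 28 ETS family genes looked up and of 19974 protein-coding genes in all. For each gene, the open chromatin peaks over the gene, within 1 kb of its ends and within 50 kb on either side were collected, which gave 513 of 308732 peaks. The stretches of different genes had 0 collected peaks in common.

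The assay was ATAC-seq, which uses a transposase to cut and tag DNA that is not wrapped in closed chromatin. The cells were blood progenitors grown from the human embryonic stem cell line H1. The labels describe 35 libraries of 50000 nuclei each, from 6 days between day 10 and day 20 of differentiation. Of these, 12 came from doxycycline-treated cultures of a line called doxee17, in which the series text places ectopic MYC under doxycycline, 11 from untreated doxee17 cultures of the same batch, and 12 from untreated H1 cultures of another batch. How the MYC construct of doxee17 was built, whether that line is a single clone and whether replicates are separate differentiations are not given in the sources used here.

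All values come from a single peak list that names no library. Doxycycline-treated and untreated cells, days and lines were therefore not compared, no value has a replicate error, and no test was made. Fold enrichment is the authors' value at a peak's summit over a genome-wide background. Intervals on fold are exact Poisson 95% intervals of the pileup, which cover counting error only. The median peak of the list had 3.46-fold enrichment and was 482 bp wide. A weak peak in a pooled list can come from few cells, from few libraries or from DNA that is a little accessible in all of them, and these cannot be told apart here.

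ETS proteins share a DNA-binding domain that recognises a GGAA core, and they act with partners such as RUNX1, GATA factors and TAL1 at enhancers of blood and endothelial genes. ETV2 acts at the top of the family in development, where it specifies the common precursors of blood and endothelium. FLI1 and ERG follow in endothelium, stem cells and megakaryocytes, PU.1 (the product of SPI1) drives myeloid and B cell fates, and ETS1 is best known from lymphocytes and endothelium.

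The ETS genes differed widely in where their accessible DNA lay. A peak summit lay within 1 kb of an annotated end in 9 of the 10 ETS genes, beside 83% of all coding genes, and SPIC was the exception. Counting any peak that overlapped an end window also gave 9 of 10, beside 87.6% of all coding genes. The highest fold at an end exceeded the median of all coding genes in 6 of the 10, beside 50% by construction, and exceeded 100-fold in SPI1, ETV2 and ELF1, beside 29.2% of all coding genes. These shares lie near the background and are not read as a result about the ETS genes. Distal peaks, with a summit over 1 kb from every coding gene end, were counted per 100 kb of gene and flanks. FLI1, ETS1, ETS2, ETV6 and ELF1 lay above the upper quartile of all coding genes by this measure, which makes 5 of 10 ETS genes beside 25% of all coding genes. The median of the 10 genes was 23.9 distal peaks per 100 kb, beside 14.02 over all coding genes.

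Long peaks and coverage gave a slightly different order. Peaks covered a median of 23.9% of the bases of an ETS gene and its flanks, beside 12.96% over all coding genes. SPI1, FLI1, ETS2, ETV6 and ELF1 lay above the upper quartile by coverage (5 of 10, beside 25%). The highest distal peak of an ETS gene had a median of 99.5-fold enrichment, beside 41.6-fold over all coding genes, and it exceeded 50-fold in 7 of the 10, beside 42.2% of all coding genes. SPIB at 48.6-fold lay just under that mark, ERG reached 32.6-fold and SPIC 10.5-fold. This measure is a maximum over gene and flanks, and genes were not matched by length. For FLI1 it is the 104-fold peak that also covers the gene's own start, counted as distal by its summit.

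**Figure D1:**
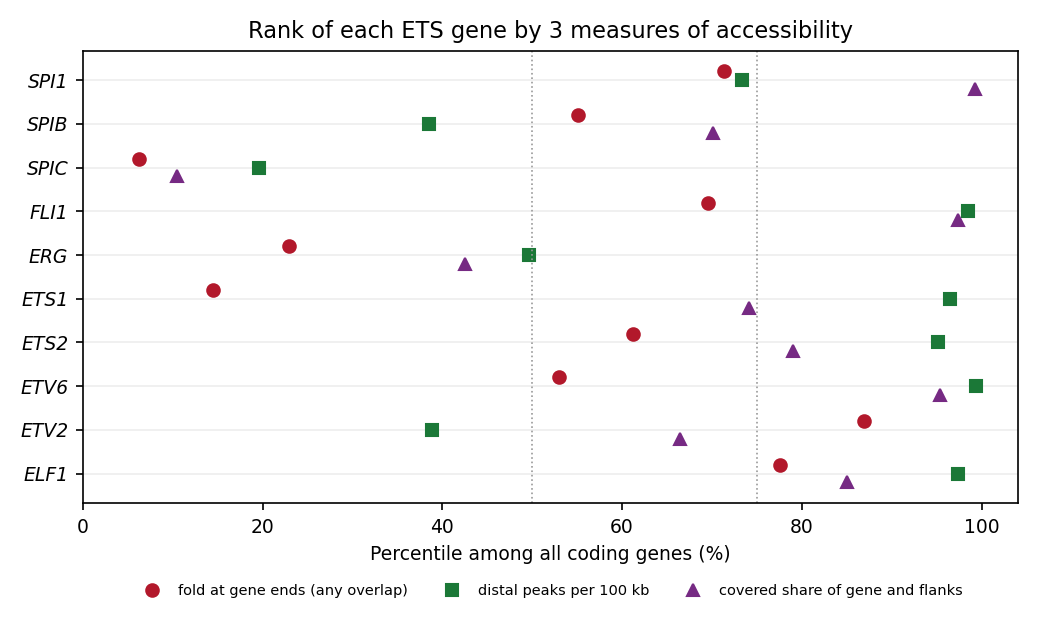
Percentile of each ETS gene among all 19974 coding genes (horizontal axis, %) for the highest fold of any peak overlapping a 1 kb window at a gene end (circles), distal peaks per 100 kb (squares) and the share of gene and 50 kb flanks in peaks (triangles); dotted lines mark the median and the upper quartile. ETS1 lies at percentile 14.4 at its ends and 96.4 for distal peaks, while SPIC lies under 20 for all 3 measures.

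The plot of percentiles separates the genes into several patterns. ETV6, FLI1 and ELF1 ranked above percentile 85 both for distal peaks and for coverage. SPI1 ranked at percentile 99.3 for coverage but 73.3 for distal peaks. Of the 30 peaks of its stretch, 5 were wider than 4000 bp. ETV2 ranked at percentile 86.9 at its ends and 38.8 for distal peaks. ERG lay below the median at its ends and for coverage, and SPIC near the bottom. For distal peaks ERG lay at the median (percentile 49.6), and under alternative settings its rank ran from percentile 46.2 to 64.3.

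SPI1 encodes PU.1, the master regulator of myeloid cells, and spans chr11:47354860-47378547 on the minus strand. Peaks covered 89.2% of the gene's 23.7 kb, against a median of 12.6% of a coding gene. The peak at the 5′ end had 108.7-fold enrichment (interval 107 to 111) and ran over 5971 bp, with its summit 24 bp before the annotated start. A second long peak of 79.9-fold enrichment (78.1 to 81.7) ran for 17851 bp, from 12.4 kb inside the gene to 6.57 kb past its 3′ end. It was the widest peak around any of the 10 genes.

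The region upstream of SPI1 carried further long and strong peaks. A peak of 96.0-fold enrichment (94.0 to 98.0) covered 10074 bp at chr11:47387410-47397483, from 8.86 to 18.9 kb before the start. The summit of this peak, to which the 96.0-fold belongs, lay at chr11:47388250, near the edge closer to SPI1. PU.1 is known to be controlled by an upstream regulatory element in this stretch, at which PU.1 itself binds. Where that element lies within the peak was not examined, so the 96.0-fold is not a value for the element. A further peak of 52.0-fold enrichment, 4169 bp long, followed directly behind the 10074 bp peak. The strongest distal peak of all 10 genes lay at chr11:47406701-47410989, with 225-fold enrichment (222 to 228) over 4289 bp, 29.8 kb upstream of SPI1 and inside SLC39A13, a zinc transporter gene. The same stretch overlaps SLC39A13-AS1, a long non-coding RNA. The peaks give no information on which gene this element serves.

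In number, SPI1 had 24 distal peaks, of which 5 lay inside the gene, 11 upstream and 8 downstream. Only 4 of them exceeded 20-fold, and 3 exceeded 50-fold, all upstream. The downstream peaks, over MADD and MYBPC3, reached no more than 4.77-fold. All distal peaks of SPI1 over 20-fold thus lay within 34.2 kb before its start.

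SPIB, a close relative of PU.1 used in B cells and plasmacytoid dendritic cells, spans chr19:50418938-50431314 on the plus strand. Its 5′ end lay under a peak of 6.18-fold enrichment (5.69 to 6.70), beside a median of 51.8-fold over all promoter windows in RefSeq, and its 3′ end under one of 68.3-fold (66.63 to 69.97). The strongest peak inside the gene had 48.6-fold enrichment (47.2 to 50.1), 9.21 kb from the start. A 3490 bp peak of 45.1-fold enrichment ended 1.44 kb before the start, within POLD1, a DNA polymerase subunit gene. The strong peaks of SPIB therefore flanked its start on both sides without including it. Distal peaks numbered 13, or 11.6 per 100 kb, below the median of all coding genes, and 5 of them exceeded 20-fold.

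SPIC, which in mouse directs the development of red pulp macrophages that recycle iron, spans chr12:101475336-101486997 on the plus strand. It had no peak at either end. The 8 peaks of the gene and its flanks ranged from 1.79-fold to 10.5-fold (9.87 to 11.2 for the highest, 4.17 kb upstream), and they covered 3.24% of the stretch. Among the 10 genes SPIC was the lowest by fold at its ends, distal peaks per 100 kb, highest distal peak and coverage. The 300 bases around its start are printed as an example of a start that no peak touched, with ETS cores (GGAA, or TTCC on the other strand) in capitals, here and in each promoter printed further on. They run from 250 bases before to 50 bases after the start, on the gene's strand, and come from RefSeq (GRCh38.p14). The window at chr12:101475086-101475385 has a GC content of 35.3%, 1 CpG and 1 ETS core.
SPIC promoter: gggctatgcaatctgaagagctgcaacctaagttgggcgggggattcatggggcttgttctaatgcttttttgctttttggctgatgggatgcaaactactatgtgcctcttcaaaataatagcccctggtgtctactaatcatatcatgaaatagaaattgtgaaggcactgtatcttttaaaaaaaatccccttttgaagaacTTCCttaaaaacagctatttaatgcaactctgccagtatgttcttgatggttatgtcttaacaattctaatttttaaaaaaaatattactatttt

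**Figure D2:**
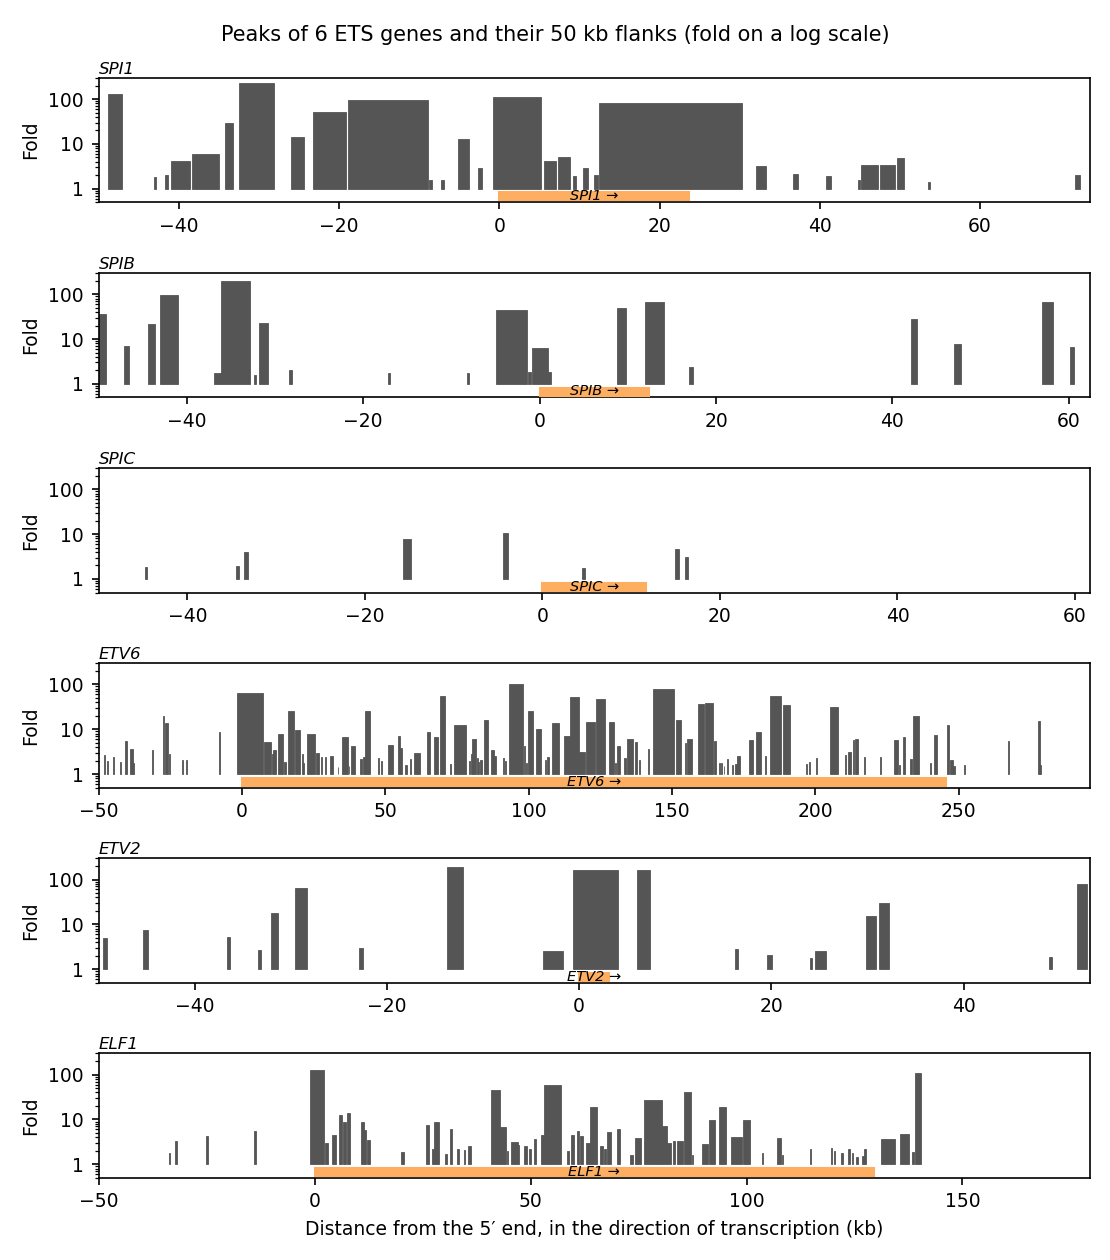
Peaks around 6 ETS genes, each drawn over its own distance scale from the 5′ end in the direction of transcription (horizontal axis, kb), with bar width for peak width and bar height for fold enrichment (log scale); orange bars mark the gene. SPI1 lies under 2 long peaks with 3 more upstream, SPIC has peaks of 10.5-fold or less, and ETV6 and ELF1 carry peaks along the whole gene.

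FLI1, an activator of endothelial, megakaryocyte and platelet genes, spans chr11:128685132-128813267 on the plus strand. A single peak of 14502 bp and 104-fold enrichment (102 to 106) covered its annotated start and reached 13.3 kb into the gene. Its summit lay 10.9 kb inside the gene, so the 5′ window held no summit of its own, and the only summit at an end was a peak of 1.62-fold (1.37 to 1.90) at the 3′ end. The end used here is the outermost start of any transcript, and starts further inside FLI1 were not in the promoter table used here. The long peak also overlaps SENCR, a long non-coding RNA read from the opposite strand and known from vascular cells.

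Behind its start, FLI1 carried a row of accessible sites. It had 75 distal peaks, or 32.9 per 100 kb, at percentile 98.5 of all coding genes. Of these, 37 lay inside the gene and 38 in the flanks. Of the 37 inside, 24 lay nearer to the 5′ end and 13 nearer to the 3′ end. After the long peak, the strongest inside the gene had 53.3-fold enrichment 41.7 kb from the start, 51.7-fold at 91.9 kb and 45.6-fold at 72.3 kb. Past the 3′ end, peaks of 48.9-fold and 53.5-fold enrichment lay at 18.002 and 23.0 kb. With 14 distal peaks over 20-fold, FLI1 had the most of the 10 genes, followed by ETV6 with 13.

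ERG, which maintains blood stem cells and endothelial identity and shares much of its DNA-binding domain with FLI1, spans chr21:38367261-38661783 on the minus strand. At 295 kb it is the longest of the 10 genes, and its accessibility was modest. The peak at its 5′ end had 6.88-fold enrichment (6.36 to 7.43), and the peak at its 3′ end 2.92-fold. The interval at the 5′ end overlapped that at the 5′ end of SPIB. Peaks covered 11.7% of ERG, against 55.6% of FLI1. Distal peaks numbered 55, or 13.9 per 100 kb, which is the level of the median coding gene, and none exceeded 50-fold.

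The 5′ part of ERG was nearly free of peaks. The 141 kb behind the annotated start held 3 distal peaks of 7.02-fold or less, or 2.13 per 100 kb. The remaining 154 kb held 35, or 22.8 per 100 kb. That boundary was placed after the peaks were seen, at the start of the dense stretch, so the contrast is a description. A gap of 78.9 kb with no summit took up 26.8% of the gene. The strongest peak inside ERG, with 32.6-fold enrichment (31.4 to 33.8), lay at chr21:38475323-38479279, 185 kb from the start. A peak of 30.6-fold enrichment (29.5 to 31.7) lay 11.1 kb past the 3′ end.

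RefSeq lists several starts for ERG, and none lay under a strong peak. A pair of neighbouring starts 163 kb into the gene lay under a peak of 3.63-fold enrichment, and another start lay under none. The outermost window in the table, chr21:38660618-38660917, has a GC content of 77.0% and 53 CpGs. Of all promoter windows with a GC content of 60% or more, 95.1% overlapped a peak, with a median of 82.1-fold enrichment, while this window lay under 6.88-fold. Its sequence is printed because such CpG-rich starts are usually far more accessible in this list. It holds 1 ETS core.
ERG outer promoter: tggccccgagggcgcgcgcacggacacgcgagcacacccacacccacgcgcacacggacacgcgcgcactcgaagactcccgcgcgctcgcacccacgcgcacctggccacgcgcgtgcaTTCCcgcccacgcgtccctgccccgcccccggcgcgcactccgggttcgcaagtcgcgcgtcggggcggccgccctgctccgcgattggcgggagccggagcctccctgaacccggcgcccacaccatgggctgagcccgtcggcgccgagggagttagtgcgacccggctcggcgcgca

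ETS1, the founding member of the family and a regulator of lymphocyte and endothelial genes, spans chr11:128458765-128587558 on the minus strand. The annotated 5′ end had a peak of 2.16-fold enrichment (1.87 to 2.47), 277 bp wide and wholly before the start, and the 3′ end had none. Inside the gene, 65.1 kb from that start, a peak at chr11:128520673-128523319 had 107-fold enrichment (105 to 109). It overlaps MIR6090, a microRNA gene. Starts of shorter ETS1 transcripts were not in the table used here, so whether this peak marks one was not examined. No other peak inside ETS1 came near it.

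Distal peaks of ETS1 numbered 68, or 29.7 per 100 kb, at percentile 96.4. Of these, 41 lay inside the gene and 18 upstream, and only 6 exceeded 20-fold. The highest in the flanks of ETS1 had 58.5-fold enrichment (57.0 to 60.1), 23.9 kb upstream, between ETS1 and FLI1. ETS1 combined a weak annotated start with one of the densest sets of distal peaks, and its coverage of 22.5% lay just under the upper quartile of 22.9%.

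ETS2, a broadly used relative of ETS1 that responds to growth factor signalling, spans chr21:38805183-38824955 on the plus strand. A 3283 bp peak of 84.1-fold enrichment (82.2 to 85.9) covered its 5′ end, and a peak of 4.49-fold lay at its 3′ end. The strongest distal peak, of 97.9-fold enrichment (95.9 to 99.9), lay at chr21:38830691-38832299, 6.70 kb past the 3′ end. A peak of 41.2-fold enrichment lay 7.50 kb upstream. Distal peaks numbered 34, or 28.4 per 100 kb, at percentile 95.1, with 27 of them in the flanks. ETS2 thus had a strong start between strong peaks on both sides, and its neighbour ERG did not.

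RefSeq gives ETS2 an outer and an inner start, both under that peak. The inner window, chr21:38805679-38805978, is printed because the summit fell inside it, 202 bp before the inner start. It holds 7 ETS cores, the most in any of the 13 windows of these genes, against a median of 3 over all promoters. One of them lies within GAGGAAGT, a motif of PU.1 that contains the core and that 2.63% of all promoters hold.
ETS2 inner promoter: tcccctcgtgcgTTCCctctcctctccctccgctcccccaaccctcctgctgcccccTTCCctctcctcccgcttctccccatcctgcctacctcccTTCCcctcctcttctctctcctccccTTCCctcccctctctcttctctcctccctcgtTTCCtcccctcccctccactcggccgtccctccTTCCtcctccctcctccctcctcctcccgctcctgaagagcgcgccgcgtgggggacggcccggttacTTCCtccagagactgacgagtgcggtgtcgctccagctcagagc

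These 4 genes form neighbouring pairs that arose by duplication, ETS1 with FLI1 on chromosome 11 and ERG with ETS2 on chromosome 21. The 97.6 kb between ETS1 and FLI1 held 38 peaks, or 38.9 per 100 kb, with 33.0% of its bases in peaks and 5 peaks over 20-fold. The 143 kb between ERG and ETS2 held 25 peaks, or 17.4 per 100 kb, with 10.7% in peaks and 4 over 20-fold. No coding gene lies in either interval (0). In both pairs the genes are read away from each other, so each interval lies before both starts. The highest peak between ETS1 and FLI1 had 58.5-fold enrichment, 23.9 kb from ETS1 and 73.6 kb from FLI1. The highest between ERG and ETS2, at chr21:38751189-38752523, had 41.5-fold enrichment and lay 90.04 kb from ERG and 53.4 kb from ETS2. By number, coverage and height, the interval of the chromosome 11 pair was the more accessible one.

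**Figure D3:**
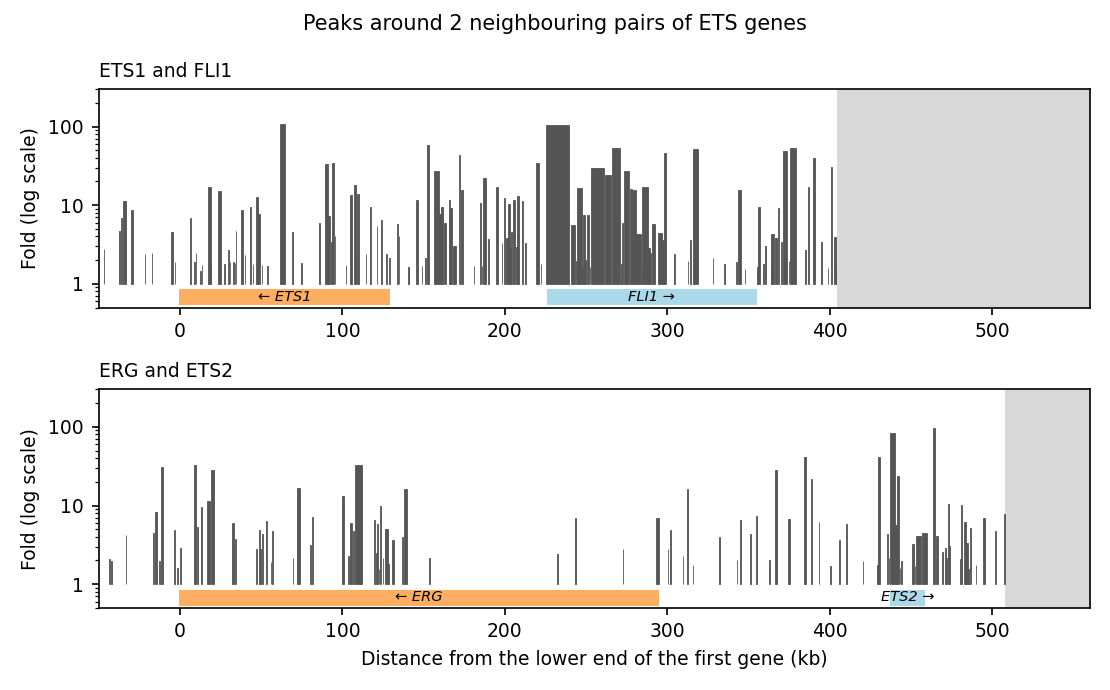
Peaks around the pairs ETS1 with FLI1 and ERG with ETS2, by distance from the lower end of the first gene (horizontal axis, kb) and fold enrichment (vertical axis, log scale), with arrows for the direction of transcription; grey marks distances more than 50 kb past the second gene, which were not collected. Peaks fill the interval between ETS1 and FLI1, while the right part of ERG next to its start is nearly empty.

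ETV6, a repressor needed by blood stem cells in mouse bone marrow and a frequent fusion partner in leukaemia, spans chr12:11649674-11895377 on the plus strand. It had the most distal peaks of the 10 genes, 122, or 35.3 per 100 kb, at percentile 99.4 of all coding genes. Of these, 102 lay inside the gene, 57 nearer to its 5′ end and 45 nearer to its 3′ end. A 9187 bp peak of 63.5-fold enrichment (61.9 to 65.2) covered the 5′ end, and the 3′ end had a peak of 12.3-fold (11.61 to 13.03). The strongest peak inside the gene had 101-fold enrichment (99.1 to 103) at chr12:11742882-11747564, 96.7 kb from the start. Next came 78.2-fold over 7175 bp at 149 kb, and 3 more between 52.9-fold and 55.2-fold. Peaks covered 53.0% of ETV6. The flanks were sparser, with 20 distal peaks of 19.4-fold or less.

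ETV2, a pioneer factor that is switched on only briefly as blood and endothelium form, spans chr19:35641745-35644871 on the plus strand. The whole gene of 3.13 kb lay under 1 peak of 4603 bp and 165-fold enrichment (163 to 168). This was the highest fold at an end of any of the 10 genes, at percentile 86.9 of all coding genes. The summit lay 2.76 kb from the start and 363 bp before the 3′ end. ETV2 had no distal peak inside and 12 in its flanks, or 11.6 per 100 kb, of which 2 exceeded 20-fold, at 29.2-fold and 79.4-fold. Its start region, chr19:35641495-35641794, is printed because it lies under the strongest peak at an end of these genes. It has a GC content of 56.0%, 4 ETS cores and 1 AGATAA, the motif of GATA factors, a short distance downstream of the last core.
ETV2 promoter: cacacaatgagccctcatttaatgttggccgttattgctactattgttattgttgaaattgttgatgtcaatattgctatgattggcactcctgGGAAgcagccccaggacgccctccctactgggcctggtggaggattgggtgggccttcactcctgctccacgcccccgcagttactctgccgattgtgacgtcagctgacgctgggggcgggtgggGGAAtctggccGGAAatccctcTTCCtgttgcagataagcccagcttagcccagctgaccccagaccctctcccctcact

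ELF1, a broadly expressed activator known to bind enhancers of blood genes, spans chr13:40931919-41061386 on the minus strand. Its 5′ end lay under a peak of 127-fold enrichment (124 to 129), 3207 bp wide. The summit lay 236 bp before the start of ELF1 and nearer to the end of its neighbour WBP4, so the peak covers an end of both genes. The 3′ end had no peak. Distal peaks numbered 71, or 30.9 per 100 kb, at percentile 97.4. Of these, 63 lay inside the gene, which at 48.7 per 100 kb of gene was the highest density inside any of the 10 genes. The strongest inside ELF1 had 58.2-fold enrichment (56.7 to 59.8), 56.2 kb from the start.

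A stretch deep inside ELF1 was accessible although AT-rich. RefSeq places a pair of inner starts there, under a 4114 bp peak of 27.2-fold enrichment (26.1 to 28.2) whose summit lay 60 bp before the upstream one. Both windows are AT-rich, with GC contents of 33.0% and 34.7%. Of all promoter windows under 40% GC, 27.1% overlapped a peak and the median fold was 0. The window at chr13:40982850-40983149 is printed with the outer one at chr13:41061337-41061636, which has a GC content of 63.0%. An inner and an outer start of the same gene can thus be read together. The inner window holds 3 ETS cores and the outer one 5.
ELF1 inner promoter: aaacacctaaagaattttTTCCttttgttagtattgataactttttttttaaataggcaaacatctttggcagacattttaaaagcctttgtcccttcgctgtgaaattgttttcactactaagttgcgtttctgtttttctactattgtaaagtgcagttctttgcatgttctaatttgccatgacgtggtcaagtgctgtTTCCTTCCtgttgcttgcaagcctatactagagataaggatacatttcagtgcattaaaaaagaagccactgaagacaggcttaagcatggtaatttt
ELF1 outer promoter: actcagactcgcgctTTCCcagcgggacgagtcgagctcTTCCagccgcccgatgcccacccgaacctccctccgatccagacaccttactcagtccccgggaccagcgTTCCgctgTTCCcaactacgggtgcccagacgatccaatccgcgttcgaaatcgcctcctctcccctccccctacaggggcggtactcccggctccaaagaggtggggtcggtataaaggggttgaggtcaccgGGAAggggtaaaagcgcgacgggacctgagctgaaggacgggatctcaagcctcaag

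**Figure D4:**
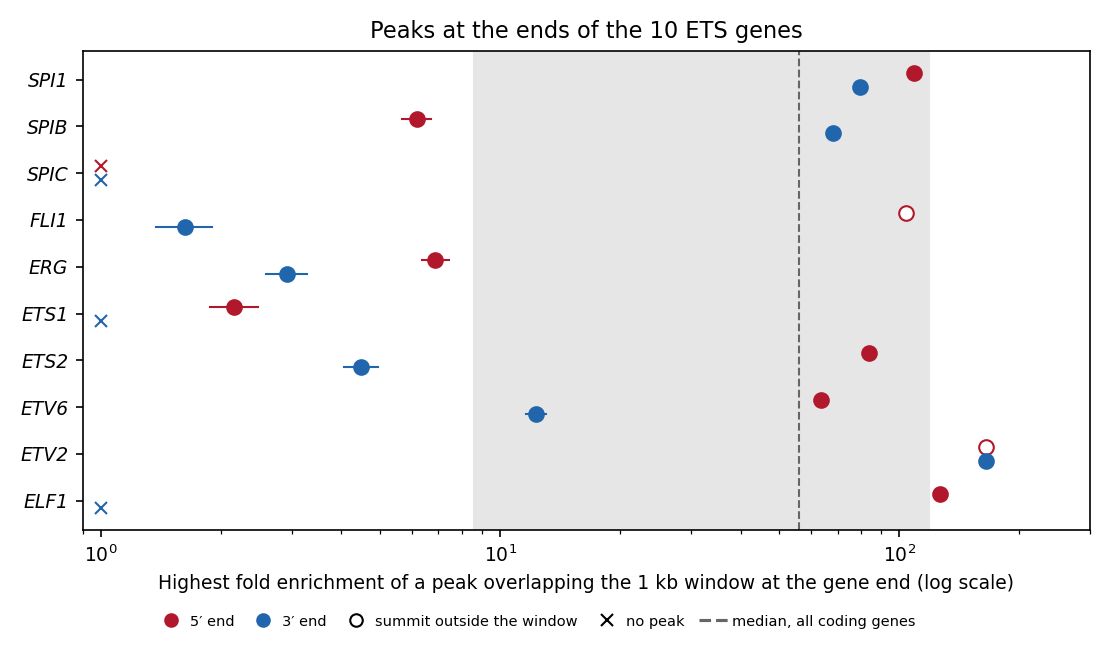
Highest fold enrichment of a peak overlapping the 1 kb window at the 5′ end (red) and the 3′ end (blue) of each ETS gene (horizontal axis, log scale), with exact Poisson 95% intervals; open circles mark peaks whose summit lies outside the window, crosses mark ends with no peak, and the dashed line and grey band give the median and quartiles of the higher end of all coding genes. By their higher end, ETV2, ELF1, SPI1 and FLI1 lie above 100-fold, while ERG, ETS1 and SPIC lie under 7-fold.

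The plot of gene ends shows how far single ends differ. The order by the highest peak overlapping either end was ETV2, ELF1, SPI1, FLI1, ETS2, SPIB, ETV6, ERG, ETS1 and SPIC. Among the 9 genes with a peak, counting intervals of neighbours in this order did not overlap. This is not an order of starts. SPIB has its place by its 3′ end, and at its 5′ end it had 6.18-fold, below the 6.88-fold of ERG. Counted by any overlap, 7 of the 10 genes exceeded the median of all coding genes of 56.1-fold, beside 50%. At the other measures the order changed. Among the strongest peaks inside the genes, ETS1 (107-fold), FLI1 (104-fold) and ETV6 (101-fold) were close, and the intervals of ETS1 and FLI1 overlapped, as did those of FLI1 and ETV6.

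Most distal peaks of the ETS genes were weak, as in the whole list. Of their 482 distal peaks, 59.8% lay under 5-fold and 3.73% exceeded 50-fold, beside 64.4% and 2.25% of the 286635 distal peaks of all genes and intergenic DNA. Their median fold was 3.73, beside 3.31, and their median width 585.5 bp, beside 467 bp. The share over 20-fold was highest in SPIB, at 38.5% of 13, and next in FLI1, at 18.7% of 75. It was 16.7% in both SPI1 (of 24) and ETV2 (of 12), 11.8% of 34 in ETS2, 10.7% of 122 in ETV6 and 8.82% of 68 in ETS1. The lowest shares were 7.27% of 55 in ERG, 7.04% of 71 in ELF1 and 0% of 8 in SPIC.

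Motifs were counted on both strands in the promoter windows of RefSeq, which held 13 windows of 7 of the ETS genes, 11 of them under a peak, beside 81.4% of 22132 windows of all coding genes. The core GGAA occurred in 11 of the 13, beside 95.2% of all windows. The fuller ETS motif CCGGAAGT, which contains that core, occurred in 0 of the 13, beside 5.35%. AGATAA occurred in 5 windows of 4 genes, beside 7.88%, and a pair of these windows overlap at the inner ERG starts. The RUNX motif TGTGGT occurred in 1, beside 11.3%. CACGTG, the E-box bound by MYC with MAX, occurred in 0, beside 8.34% of all windows, and the AP-1 motif TGACTCA in 0, beside 4.01%. The windows of all coding genes were not matched by GC content, and their median was 62.3%. The 5 windows with AGATAA had between 34.7% and 58.0%, so these shares are not like for like. A match or its lack is a description of these 300 bases and says nothing of binding.

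The other 18 genes of the ETS family give the closest comparison. All 18 had a summit at an end, against 9 of the 10 genes described and 83% of all coding genes. The medians at gene ends were 65.9-fold for the 10 and 63.6-fold for the 18. Distal peaks had a median of 23.9 per 100 kb for the 10 and 18.1 for the 18, and 5 of 10 against 8 of 18 lay above the upper quartile of all coding genes. By coverage, 5 of 10 against 2 of 18 lay above the upper quartile. The 2 were ERF, a repressor with 46.0% of its stretch in peaks, and ELK4 with 25.6%, both named after their values were seen. By summits within 1 kb of an end, the highest among the 18 were ETV5 with 264-fold, ELF2 with 173-fold and GABPA, a general activator of housekeeping genes, with 160-fold enrichment. By any overlap ERF came second, with 251-fold. No test was made of these differences.

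**Figure D5:**
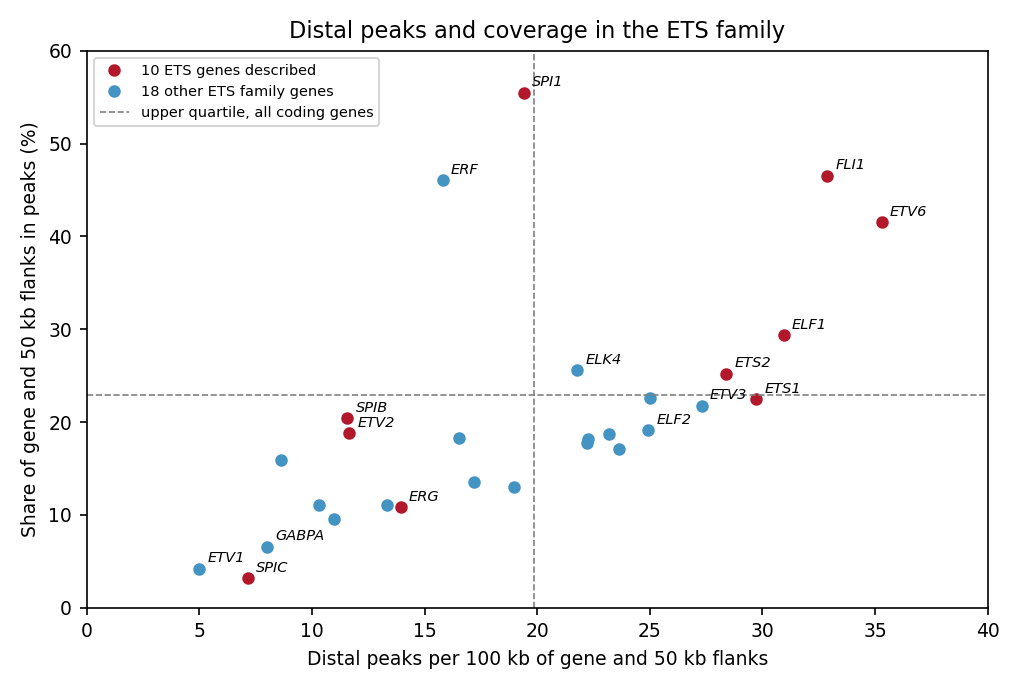
Distal peaks per 100 kb (horizontal axis) against the share of gene and 50 kb flanks in peaks (vertical axis, %) for the 10 ETS genes described (red) and 18 other ETS family genes (blue); dashed lines mark the upper quartiles of all coding genes. FLI1, ETV6, ELF1 and ETS2 lie beyond both quartiles, as does ELK4 among the other genes, while SPI1 and ERF have high coverage with fewer distal peaks.

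As the plot of the family shows, coverage and number of distal peaks went apart in SPI1 and ERF. GABPA and ETV1, the second named after its values were seen, lay near SPIC in this plot. At their ends they had 160-fold and 150-fold enrichment, while SPIC had no peak.

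Genes that work with ETS factors were also rich in distal peaks. Of 12 partner genes, 8 lay above the upper quartile by distal peaks and 9 by coverage, beside 25% of all coding genes. By summits within 1 kb of an end, they were led by JUN with 196-fold, LYL1, a relative of TAL1, with 191-fold and CBFB, the partner subunit of RUNX proteins, with 85.8-fold enrichment. GATA2 and TAL1 had no summit within 1 kb of an end, but peaks of 54.9-fold and 105-fold overlapped their end windows. FLI1 likewise had its strong peak over a window that did not hold the summit, though it had a weak summit at its 3′ end.

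Known targets of ETS factors were described the same way. Of all coding genes, 83% had a summit at an end, 50% exceeded the median there and 25% lay above the upper quartile by distal peaks. All 12 myeloid targets of PU.1 had a summit at an end. By summits 4 of them exceeded the median of all coding genes there, and by any overlap 6 did. By distal peaks 6 lay above the upper quartile. By summits at an end, the highest were NCF1, an oxidase subunit, with 268-fold, CD68, a macrophage marker, with 141-fold and TLR4, a receptor for bacterial lipopolysaccharide, with 71.2-fold enrichment. By any overlap CSF3R, a growth factor receptor of neutrophils named after its values were seen, lay above TLR4, with 112-fold. NCF1 has near-identical copies, so its value is uncertain. Of 12 endothelial targets of ERG, FLI1 and ETV2, only 1 exceeded the median by summits at its ends, PECAM1 with 82.9-fold, followed by ICAM2 with 28.9-fold and KDR with 28.4-fold, while 7 lay above the upper quartile by distal peaks. CDH5 and ESAM, both endothelial junction genes, and EGFL7, named after its values were seen, had no summit at an end. Peaks of 33.4-fold, 113-fold and 36.5-fold overlapped their end windows, and by any overlap 2 of the 12, ESAM and PECAM1, exceeded the median of all coding genes. Of 8 megakaryocyte targets of FLI1, 4 exceeded the median at their ends by summits and 3 by any overlap, and 5 lay above the upper quartile by distal peaks. They were led by ITGA2B, a fibrinogen receptor subunit of platelets, with 113-fold, and GP6, a collagen receptor, with 73.3-fold enrichment.

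Markers of cell types were set beside these genes, and the lists overlap, since GATA2, RUNX1 and MYB are also partners and the endothelial markers are also endothelial targets. Among 8 blood progenitor markers the median density was 32.4 distal peaks per 100 kb, and 7 of them lay above the upper quartile of all coding genes. The medians were 17.98 for 4 endothelial, 16.6 for 4 pluripotent, 17.4 for 4 B cell and 15.4 for 4 T cell markers. By summits at gene ends, the median fold was 34.4 for progenitor, 19.2 for endothelial and 2.17 for pluripotent markers. It was 8.19 for B cell and 42.6 for T cell markers. By this rule only the T cell list lay above the progenitor list. By any overlap the order was reversed, with 49.6 for progenitor and 48.1 for T cell markers. The medians of the other lists were also higher by any overlap, and they stayed below both. POU5F1 and NANOG, which define pluripotent cells, had 1.93-fold and 2.42-fold enrichment at their ends, and MS4A1, a B cell marker, had no peak there. The part of other cell types in the peaks of ETS genes was not tested.

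Genes most like SPI1, FLI1 and ERG were taken by distance over 3 percentiles (fold at ends by summit, distal peaks and coverage) in this single list. Nearest to SPI1 were STUB1, TIGD5 and POLR2L, nearest to FLI1 were CTU2, SH3TC1 and CDX1, and nearest to ERG were GPR34, GRAMD1B and RIPPLY3. STUB1 had 115-fold enrichment at its ends, 19.5 distal peaks per 100 kb and 54.3% coverage, beside 108.7-fold, 19.4 and 55.5% for SPI1. CTU2 had 1.84-fold, 31.2 and 50.9%, beside 1.62-fold, 32.9 and 46.5% for FLI1. The value of 1.62-fold is the weak summit at the 3′ end of FLI1. The summit rule leaves out the 104-fold peak over its start, so likeness to FLI1 at the ends holds by that rule only. GPR34 had 6.60-fold, 13.85 and 10.9%, beside 6.88-fold, 13.9 and 10.9% for ERG.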

How the data were processed

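ATAC-seq reads of the pooled list were processed by the authors. Per the submitters' processing notes, the tools included Bowtie2 2.2.8, Picard 2.2.4 and Trim Galore 0.6.5, with hg38 and GRCh38.p13 as builds, and the deposited peak names carry MACS 2.1.0 and GENCODE 36. Read filters, transposase shifts, the order of steps and the libraries pooled are not given in the sources used here. The labels describe 35 libraries and the design text 44. Depth per library is unknown.

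The deposited list gives each peak a score, a fold enrichment (a linear ratio) at its summit and a −log10 p. Fold and p in the deposited list match 1 genome-wide background of 93.5, under which 100% of 243585 pileups under 1000 came out whole within 0.1. Such a background leaves uncorrected any difference in copy number or mappability. The lowest deposited fold was 1.32, a pileup of 124. Columns of per-sample values left unused numbered 0.

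Peaks were joined by summit to 19974 RefSeq coding genes (GRCh38.p14; same chromosome coordinates), which carry outer ends but no exons, so introns and exons were not separated. Strands of SPI1, FLI1 and ETS1 are from general knowledge, those of the other 7 from RefSeq promoter windows. End windows were 1 kb and flanks 50 kb on each side. Percentiles are among all coding genes. Python 3.11.15, numpy 2.4.6, pandas 2.3.3, scipy 1.17.1 and matplotlib 3.10.9 were used, and the scripts were tested on simulated data. Members and gene lists were chosen with earlier results of these data known. Named genes are all 10 members, the 3 highest ends and up to 2 genes without a summit at an end in each list, and the 3 most alike genes of SPI1, FLI1 and ERG. One gene that this rule names is not reported here. Doxycycline-treated and untreated libraries were not compared, since the list holds no value for any library.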

Additional observations from a re-analysis of the deposited data

How the results depend on the processing

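Of the 10 ETS genes, 5 or 6 lay above the upper quartile of distal density under every alternative tried (6 with end windows of 0.5 kb or flanks of 20 kb, where SPI1 joined). Values at gene ends depended on the window. With end windows of 0.5 kb, 3 genes exceeded the median of all coding genes and the median fold of the ETS genes was 5.33, beside 27.9 for all coding genes. With the 5′ end only, which RefSeq gave for 7 of the genes, 5 had a summit, 3 exceeded the median and the median fold was 6.88, beside 47.7. The median fold was 76.2 (beside 56.1) with any overlap and 35.2 (beside 24.8) when summits nearer to another coding gene were left out, an alternative chosen after seeing the data. With the more significant 50% of the peaks, the median distal density was 11.6 per 100 kb (beside 6.66) and the median coverage 18.2% (beside 9.67%). Median coverage was 30.02% with flanks of 20 kb (beside 13.5%) and 21.8% with flanks of 100 kb (beside 12.7%). For single genes, 50 of 60 alternative densities and 46 of 57 alternative folds moved by less than the counting interval. For densities this is a Poisson interval on the number of distal peaks, not on the pileup. It is wide for genes with few peaks, such as SPIC (3.09 to 14.1 around 7.16). The end fold of SPIC was 0 under every setting, so its folds all counted as unmoved. Coverage has no counting interval, so any change counted as a move, and all 30 alternative coverages moved by that rule. The count for coverage is therefore not comparable with those for densities and folds. Counting only within 50 kb of either end, leaving out the interior of long genes, was also chosen after seeing the data. No paired analysis was possible because the list holds no value for any library, and leaving out replicates could not be run for the same reason. The pooled depth limits the weak peaks in particular: which libraries carry them is not known.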

Other observations

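The stretches of 3 ETS genes hold strong peaks at the ends of neighbouring coding genes, which the distal counts leave out. Near SPI1, a peak of 130-fold enrichment lay at PSMC3, a proteasome subunit gene. Near SPIB, a peak of 197-fold lay between POLD1 and NR1H2, a nuclear receptor gene. Near ETV2, peaks of 189-fold at RBM42, an RNA-binding protein gene, and 163-fold at COX6B1, a cytochrome oxidase subunit gene, lay on either side of the 165-fold peak of ETV2 itself. Coverage of gene and flanks includes these peaks.

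The highest peak in the flanks of ELF1, with 107-fold enrichment (104 to 109), lay 10.2 kb past its 3′ end in SUGT1P3, a transcribed pseudogene. Related copies of this sequence exist elsewhere in the genome, so reads may be shared among them and the value is uncertain.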
